A study of Mus musculus with 12 samples.

Results

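Immediate early genes of the Egr, Nr4a and Klf families, with Ier2 and Btg2, were followed in inguinal white adipose tissue (iWAT) by RNA-seq. The 10 genes, Egr1, Egr2, Egr3, Nr4a1, Nr4a2, Nr4a3, Ier2, Klf2, Klf4 and Btg2, were found by their names in the table of read counts, and each name matched a single gene among the 54134 listed. Of these 10 genes, 9 passed the filter on low counts and were tested, while Egr2 had 0 to 5 reads per mouse and was not. The samples were iWAT from 12 chow-fed male C57BL/6J mice, with 6 mice in the AAV-GFP group, 6 in the AAV-Notum group and a library for each. Every mouse carried an AAV8 virus, injected through the tail vein at 8 weeks of age, in which the human TBG promoter drove either GFP or mouse Notum in the liver. Tissue was taken 4 weeks later, after a 4 h fast. NOTUM is a secreted enzyme that inactivates Wnt proteins. Because the transgene was expressed in the liver, the 1 to 560 Notum reads found in the fat do not check the labels.

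Immediate early genes are transcribed within minutes of a stimulus, such as a growth factor, a hormone that raises cAMP, mechanical stress or shear flow, without the need for new protein. Kinase cascades act on SRF, its ternary complex partners and CREB already bound at the promoters, and phosphatases, decay of the mRNA and corepressors end the response soon afterwards. EGR and KLF proteins are zinc finger transcription factors, NR4A proteins are nuclear receptors that work without a known hormone, and in whole fat these transcripts can come from adipocytes, vessels, stromal cells or leukocytes alike.

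Between 14711113 and 21618860 reads were counted on genes per mouse, and the totals of the groups overlapped (exact permutation p = 0.279, two-sided, n = 6 per group). RNA integrity numbers spanned 5.7 to 7.6 (AAV-GFP) and 6.9 to 7.4 (AAV-Notum), the lowest being that of mouse AAV-GFP-2011. RNA of 1 mouse, AAV-GFP-2012, was isolated 20 days after that of the others. The 10 adipocyte markers were present in every mouse, with a summed level of 35880 to 80190 CPM (counts scaled to library size). By their B and T cell transcripts, AAV-GFP-2011 and AAV-GFP-2014 stood apart. The lymphoid score, the mean log2 CPM of 15 markers, was 0.06 and -0.50 in these 2 mice and 4.01 to 7.29 in the other 10. Their summed lymphoid level was 16.5 and 10.5 CPM, against 410.5 to 2723 CPM, although none of the 15 markers was at 0. Both mice also lay outside the other 10 in the scores of mast cells (1.70 and 1.57, against 2.82 to 3.65), stromal progenitors (6.18 and 5.70, against 6.37 to 6.75) and adipocytes (11.72 and 11.83, against 10.61 to 11.65). Each comparison of the 9 tested genes between the groups is therefore also given without these 2 mice.

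Per length of exon, Klf2 had the highest level of the 10 genes and Egr2 the lowest. In RPKM (reads per kb of exon, scaled to library size), the mean level in AAV-GFP mice was 41.7 ± 16.5 for Klf2, 27.1 ± 5.78 for Btg2, 17.8 ± 3.51 for Klf4 and 14.9 ± 5.91 for Ier2 (SD, n = 6). The RPKM of Egr1 was 5.80 ± 1.21, that of Nr4a1 4.56 ± 1.82 and that of Egr3 2.82 ± 2.35. The lowest levels of the tested genes, 1.45 ± 0.36 RPKM for Nr4a2 and 1.35 ± 0.98 RPKM for Nr4a3, did not differ beyond their spread. Down to Nr4a3, the mean ± SD ranges of neighbours in this order overlapped, except those of Ier2 and Egr1. In AAV-Notum mice the order of Klf4 and Ier2 was the opposite: Ier2 had 21.0 ± 4.19 RPKM and Klf4 12.2 ± 1.71 RPKM, after Klf2 with 52.7 ± 16.5 RPKM and Btg2 with 35.8 ± 8.86 RPKM. The genes also differed in how much they varied between mice. Over the 12 mice the highest CPM was 24.5 times the lowest for Egr3 and 14.5 times for Nr4a3, but 2.29 times for Btg2 and 2.38 times for Klf4.

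The genes did not move as a group between AAV-GFP and AAV-Notum mice. Klf4 was lower in every AAV-Notum mouse than in every AAV-GFP mouse, whereas Egr1, Egr3, Ier2, Btg2, Klf2, Nr4a1 and Nr4a3 had higher fitted levels and Nr4a2 a lower one, in overlapping groups. With p-values from edgeR's quasi-likelihood test adjusted over all 15585 genes tested, 0 of the 9 genes were lower at 0.05, where 0.0513% of all genes were, and 0 were higher, where 0% were. With DESeq2, 1 of the 9, Klf4, was lower at an adjusted p under 0.05 (2.18% of all genes with an adjusted p) and 0 were higher (0.482%). With limma-voom, 0 passed in either direction. At an unadjusted edgeR p under 0.05, 1 gene, Klf4, was lower (9.54% of all genes) and 2, Egr1 and Btg2, were higher (4.64%). The groups did not overlap for 1 of 9 genes, with AAV-Notum below AAV-GFP (0.693% of all genes), and 0 of 9 were separated the other way (0.398%). The median log2 fold change of the 9 genes, AAV-Notum over AAV-GFP, was 0.34, with 7 positive and 2 negative values, beside 0.0077 over all genes tested.

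**Figure D1:**
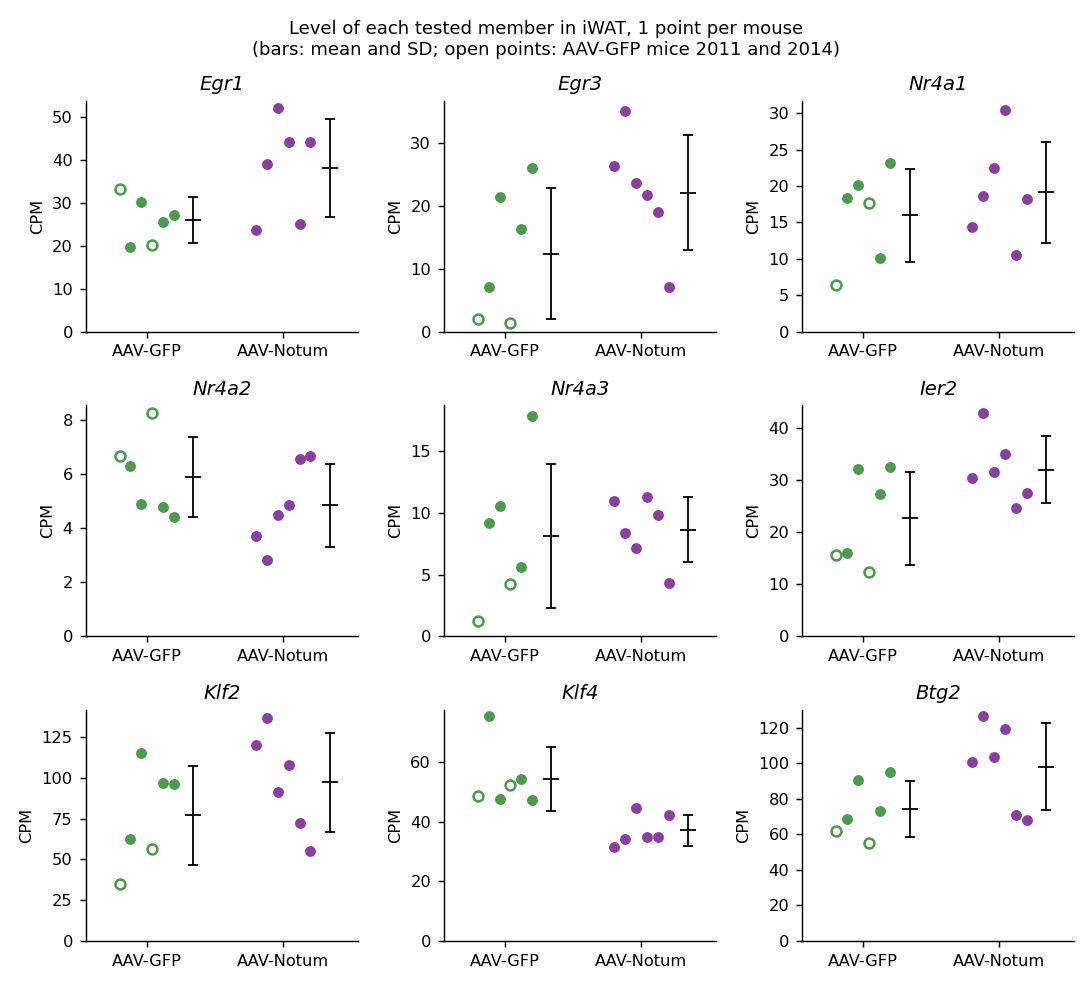
Level of each of the 9 tested genes in CPM (vertical axis, starting at 0), 1 point per mouse, for AAV-GFP and AAV-Notum, with bars for the mean and SD of 6 mice. Open points are AAV-GFP-2011 and AAV-GFP-2014; they lie at the bottom for Egr3, Nr4a3, Ier2 and Btg2, and only for Klf4 do the groups not overlap.

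Klf4 and Klf2 are close relatives that restrain inflammation and clotting in endothelial cells, and Klf2 also keeps T cells quiescent and circulating. Klf4 (ENSMUSG00000003032, chr4:55527143-55532466 of GRCm38, minus strand) had 47.3 to 75.3 CPM in AAV-GFP mice (median 50.5) and 31.6 to 44.7 CPM in AAV-Notum mice (median 34.9). All AAV-GFP values thus exceeded all AAV-Notum values, on 568 to 1265 reads per mouse. The mean was 54.2 ± 10.7 CPM in AAV-GFP and 37.1 ± 5.20 CPM in AAV-Notum mice (SD, n = 6). This was 0.683-fold, or -0.55 on the log2 scale (standard error 0.13, 95% confidence interval -0.83 to -0.27). The edgeR adjusted p was 0.136 (unadjusted p = 0.00116), and the exact permutation p was 0.00217, the smallest that 6 mice against 6 can give. DESeq2 gave the same size of difference, -0.54, with an adjusted p of 0.0097, or 0.0189 without its independent filtering. Mouse AAV-GFP-2012, with RNA isolated later, was the highest with 75.3 CPM, and without it the log2 fold change was -0.43 (edgeR adjusted p = 0.256, unadjusted p = 0.00116).

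Klf2 (ENSMUSG00000055148, chr8:72319033-72321656, plus strand) ran from 34.7 to 115.5 CPM in AAV-GFP mice (median 79.4) and from 54.9 to 136.6 CPM in AAV-Notum mice (median 99.6). The groups overlapped widely, and 2 AAV-Notum mice were above every AAV-GFP mouse. The difference of 0.34 on the log2 scale (standard error 0.29, 95% confidence interval -0.30 to 0.97, edgeR adjusted p = 0.544) was within the spread between mice.

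The EGR factors gave 1 gene with a positive difference at an unadjusted p under 0.05. Egr1 (ENSMUSG00000038418, chr18:34859823-34864984, plus strand), a zinc finger factor that growth factors and injury switch on, had 19.7 to 33.3 CPM in AAV-GFP mice (median 26.3) and 23.7 to 52.2 CPM in AAV-Notum mice (median 41.7). Of the 6 AAV-Notum mice, 4 were above every AAV-GFP mouse, and the other 2 lay within the AAV-GFP range. Mean Egr1 was 26.0 ± 5.42 CPM against 38.1 ± 11.4 CPM (SD, n = 6). On the log2 scale the difference was 0.55 (standard error 0.21, 95% confidence interval 0.10 to 1.00). The edgeR adjusted p was 0.280 (unadjusted p = 0.0214) and the exact permutation p 0.052. Without mouse AAV-Notum-2033, the highest, the unadjusted edgeR p was 0.0558.

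Egr3 (ENSMUSG00000033730, chr14:70077203-70082614, plus strand), which antigen receptor signalling induces in lymphocytes, had 1.43 to 26.1 CPM in AAV-GFP mice (median 11.8) and 7.06 to 35.0 CPM in AAV-Notum mice (median 22.7). The groups overlapped. The log2 fold change of Egr3 was the highest of the 9, 0.83, with the largest standard error, 0.63 (95% confidence interval -0.53 to 2.20, edgeR adjusted p = 0.500). It was 1.39 both with limma-voom (adjusted p = 0.287) and on the authors' normalized values (limma adjusted p = 0.319). Egr2 (ENSMUSG00000037868, chr10:67535475-67542188, plus strand), a factor of Schwann cells and activated lymphocytes, had 0 to 5 reads in AAV-GFP and 1 to 4 reads in AAV-Notum mice. The single mouse with 0 Egr2 reads could hold up to 0.179 CPM, which is 3 counts at its depth and covers counting error only. A group difference in Egr2 was not detectable at this depth.

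None of the Nr4a genes differed between the groups beyond the spread. Nr4a1 (ENSMUSG00000023034, chr15:101254269-101274795, plus strand), a receptor induced by cAMP and by T cell receptor signals, had 6.44 to 23.2 CPM in AAV-GFP mice (median 18.02) and 10.6 to 30.5 CPM in AAV-Notum mice (median 18.4). The medians were close and the ranges overlapped, with a log2 fold change of 0.26 (standard error 0.32, 95% confidence interval -0.43 to 0.94, edgeR adjusted p = 0.655). Without AAV-Notum-2034 that of Nr4a1 was 0.08, and without AAV-GFP-2011 it was 0.10. Nr4a2 (ENSMUSG00000026826, chr2:57106830-57124003, minus strand), best known from dopamine neurons, had 4.43 to 8.28 CPM in AAV-GFP mice (median 5.61) and 2.83 to 6.67 CPM in AAV-Notum mice (median 4.69). For Nr4a2, 2 AAV-Notum mice lay below every AAV-GFP mouse. The log2 difference was -0.28 (standard error 0.23, 95% confidence interval -0.78 to 0.22, edgeR adjusted p = 0.526). Nr4a3 (ENSMUSG00000028341, chr4:48045153-48086447, plus strand), which adrenergic signals induce in fat and muscle, had 1.23 to 17.9 CPM in AAV-GFP mice (median 7.38) and 4.34 to 11.3 CPM in AAV-Notum mice (median 9.08). All AAV-Notum values of Nr4a3 were inside the AAV-GFP range. The coefficient of variation of Nr4a3 was 72.1% in AAV-GFP and 30.2% in AAV-Notum mice, and the log2 fold change was 0.10 (standard error 0.48, 95% confidence interval -0.94 to 1.13, edgeR adjusted p = 0.925). It was 0.48 with limma-voom (adjusted p = 0.59) and 0.44 on the authors' normalized values (limma adjusted p = 0.65).

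Ier2 and Btg2 stand outside the 3 families but are induced with them. Btg2 (ENSMUSG00000020423, chr1:134075170-134079120, minus strand), which slows the cell cycle and promotes removal of mRNA poly(A) tails, had 55.3 to 95.3 CPM in AAV-GFP mice (median 70.9) and 68.2 to 126.6 CPM in AAV-Notum mice (median 102.3). As for Egr1, 4 AAV-Notum mice were above every AAV-GFP mouse. Mean Btg2 was 74.2 ± 15.9 CPM against 98.3 ± 24.3 CPM (SD, n = 6). The corresponding log2 fold change was 0.40 (standard error 0.18, 95% confidence interval 0.01 to 0.80). The edgeR adjusted p was 0.345 (unadjusted p = 0.0471), the exact permutation p was 0.0758, and the unadjusted edgeR p with single mice left out ran from 0.0168 to 0.111. Ier2 (ENSMUSG00000053560, chr8:84661331-84662852, minus strand), a nuclear protein of fast growth factor responses, had 12.4 to 32.4 CPM in AAV-GFP mice (median 21.6) and 24.6 to 42.8 CPM in AAV-Notum mice (median 30.9). All 6 AAV-Notum mice exceeded the mean Ier2 level of AAV-GFP mice, yet the ranges overlapped. The log2 difference of Ier2 was 0.50 (standard error 0.25, 95% confidence interval -0.04 to 1.04, edgeR adjusted p = 0.375).

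Several of these values rested on the 2 AAV-GFP mice with few lymphoid transcripts. AAV-GFP-2011 and AAV-GFP-2014 were both below all 10 other mice for Egr3 (2.07 and 1.43 CPM, against 7.06 to 35.0), Nr4a3 (1.23 and 4.23 CPM, against 4.34 to 17.9), Ier2 (15.7 and 12.4 CPM, against 15.9 to 42.8) and Btg2 (62.1 and 55.3 CPM, against 68.2 to 126.6). For Nr4a2 both were above all others, with 6.67 and 8.28 CPM against 2.83 to 6.67 CPM, the lower of them by a margin smaller than the rounding. For Klf2 and Nr4a1, AAV-GFP-2011 alone was below all 10. For Egr1 (33.3 and 20.2 CPM) and Klf4 (48.8 and 52.2 CPM) both mice lay among the others.

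Without these 2 mice, 4 AAV-GFP and 6 AAV-Notum mice gave a log2 fold change of 0.32 for Egr3, 0.25 for Ier2, 0.26 for Btg2, 0.07 for Klf2, 0.09 for Nr4a1, -0.08 for Nr4a2 and -0.31 for Nr4a3. Those of Egr1, 0.57 (standard error 0.23, edgeR adjusted p = 0.648, unadjusted 0.0328), and Klf4, -0.60 (standard error 0.15, edgeR adjusted p = 0.410, unadjusted 0.00221), were farther from 0 than with all mice. With the lymphoid score as a covariate in all 12 mice, Egr1 was at 0.54 (edgeR adjusted p = 0.543, unadjusted 0.0444) and Klf4 at -0.52 (edgeR adjusted p = 0.395, unadjusted 0.00431). In that fit 4.91% of all genes were lower and 4.05% higher at an unadjusted p under 0.05. The values of the other genes came close to 0 or changed sign: Egr3 -0.04, Klf2 -0.10, Nr4a2 0.05, Nr4a1 0.07, Ier2 0.12, Btg2 0.15 and Nr4a3 -0.50. AAV-GFP-2011 also had the lowest RNA integrity number, 5.7. With that number as the covariate instead, Egr1 was at 0.64, Egr3 0.54, Ier2 0.40, Btg2 0.35, Klf2 0.18 and Nr4a1 0.17. Nr4a3 was then at -0.11, Nr4a2 at -0.19 and Klf4 at -0.58. The parts of RNA quality and lymphoid RNA in these values were not tested. In bulk tissue, fewer cells of a type and less RNA per cell cannot be told apart.

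**Figure D2:**
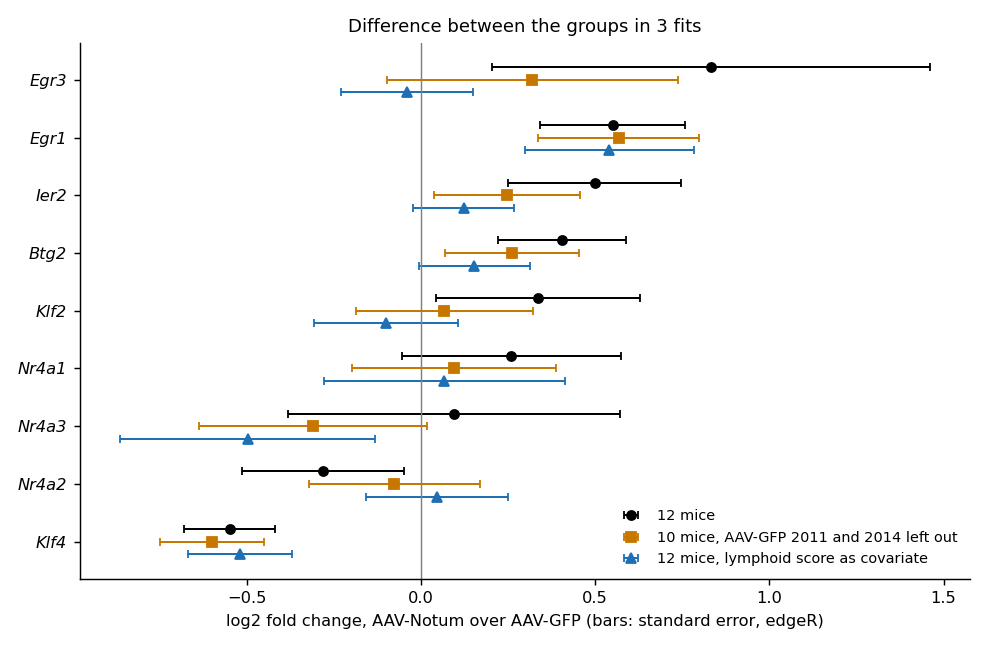
Log2 fold change of AAV-Notum over AAV-GFP (horizontal axis) for the 9 tested genes in 3 edgeR fits, with bars for the standard error. Black circles are all 12 mice, orange squares the 10 mice left when the mice with few lymphoid transcripts are taken out, and blue triangles all 12 mice with the lymphoid score as a covariate; Egr1 and Klf4 keep their place, while Egr3 goes from 0.83 to 0.32 and -0.04.

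Among the 10 other mice as well, several of the genes followed the lymphoid score. Pearson's r and Spearman's rho were computed for the 9 genes with the lymphoid, endothelial and adipocyte scores, 27 relations in all, with permutation p-values adjusted over them. Egr3 followed the lymphoid score most closely (r = 0.94, p = 4e-05, adjusted 0.00108; rho = 0.93, p = 0.00045, adjusted 0.00576). The correlation was positive too for Ier2 (r = 0.89, adjusted permutation p = 0.00877; rho = 0.83, adjusted 0.0188), Klf2 (r = 0.85, adjusted permutation p = 0.00799; rho = 0.87, adjusted 0.0117) and Btg2 (r = 0.75, adjusted permutation p = 0.01; rho = 0.88, adjusted 0.0114). It was negative for Nr4a2 (r = -0.73, adjusted permutation p = 0.0279; rho = -0.78, adjusted 0.0256) and Klf4 (r = -0.75, adjusted permutation p = 0.0262; rho = -0.72, adjusted 0.0419). For Egr1 (r = 0.32, rho = 0.16), Nr4a1 (r = 0.10, rho = 0.41) and Nr4a3 (r = 0.38, rho = 0.55) the adjusted permutation p was above 0.05.

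With AAV-GFP-2012 and AAV-Notum-2042, the mice farthest from the median score, left out, r was 0.92 for Egr3, 0.83 for Ier2, 0.82 for Klf2, 0.85 for Btg2 and -0.85 for Nr4a2, with exact permutation p-values of 0.00124 to 0.0129 over 8 mice. For Klf4 it was -0.60 (exact permutation p = 0.122), so the relation of Klf4 did not pass without these 2 mice. Within the 6 AAV-Notum mice alone, r was 0.98 for Egr3 (exact permutation p = 0.00278; rho = 0.94, p = 0.0167), 0.96 for Klf2 (exact permutation p = 0.00139; rho = 1, p = 0.00278) and -0.82 for Nr4a2 (exact permutation p = 0.0319; rho = -0.94, p = 0.0167). For Btg2 r was 0.84 (exact permutation p = 0.00972) and rho 0.83 (exact permutation p = 0.0583), so only Pearson's r passed. That of Ier2 was 0.65 (exact permutation p = 0.167; rho = 0.77, p = 0.103) and that of Klf4 -0.65 (exact permutation p = 0.144; rho = -0.77, p = 0.103), so for these 2 genes the relation did not pass within a group. The endothelial and adipocyte scores moved against the lymphoid score. With the endothelial score r was -0.94 for Egr3, -0.82 for Klf2 and 0.80 for Klf4, and with the adipocyte score r was -0.88 for Egr3, -0.87 for Klf2 and -0.73 for Nr4a3. Of the 27 relations, 18 had an adjusted permutation p of Pearson's r under 0.05. Without AAV-GFP-2012 and AAV-Notum-2042, also the mice farthest out for these scores, 9 of the 18 had an unadjusted exact permutation p under 0.05 in the 8 mice left, 5 of them with the lymphoid score. For the endothelial score r was then -0.86 for Egr3 (exact permutation p = 0.00543), -0.63 for Klf2 (exact permutation p = 0.0943) and 0.69 for Klf4 (exact permutation p = 0.0738). For the adipocyte score it was -0.77 for Egr3 (exact permutation p = 0.0201), -0.69 for Klf2 (exact permutation p = 0.0565) and -0.73 for Nr4a3 (exact permutation p = 0.0308).

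**Figure D3:**
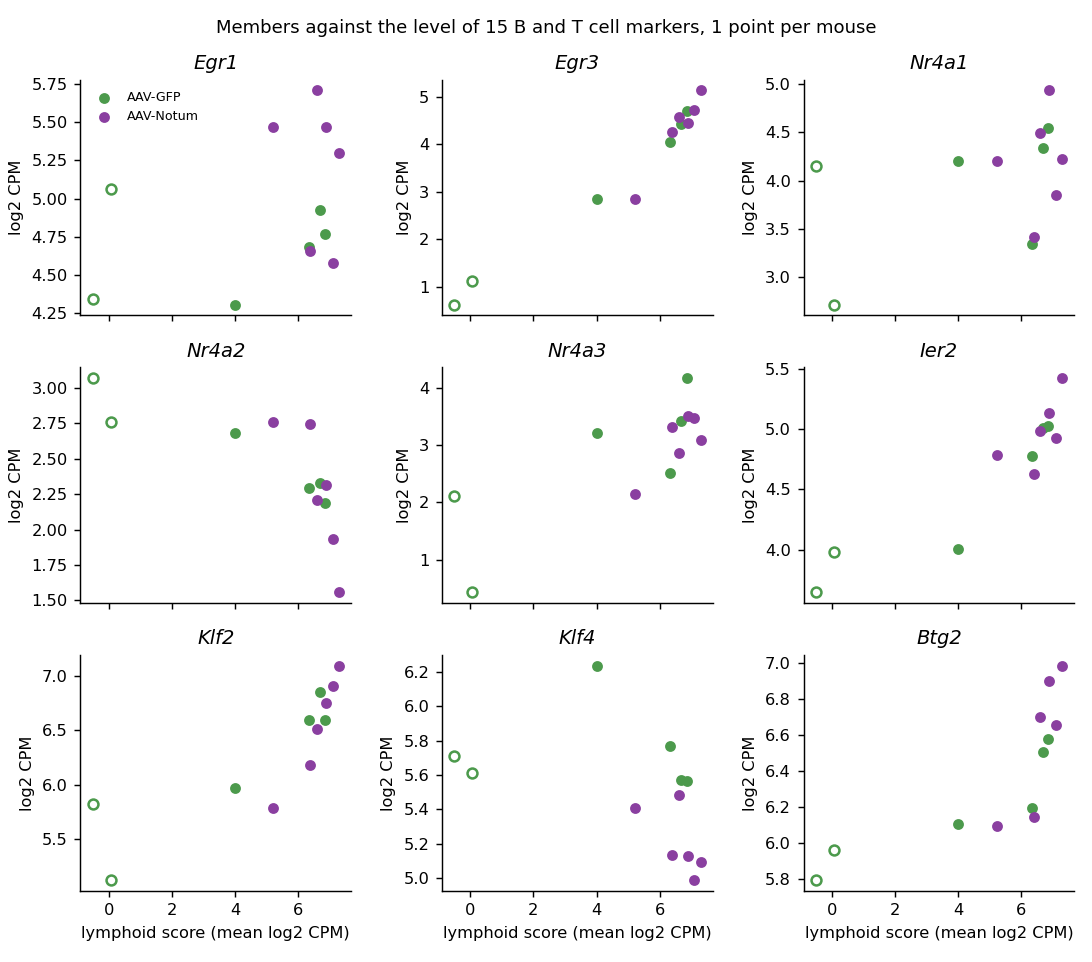
Log2 CPM of each gene (vertical axis) against the lymphoid score, the mean log2 CPM of 15 B and T cell markers (horizontal axis), 1 point per mouse, AAV-GFP green and AAV-Notum purple. Open points are the 2 mice with few lymphoid transcripts; over the other 10 mice Egr3 lies close to a line (r = 0.94), while Egr1 (r = 0.32) does not.

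No marker score differed between the groups at an exact permutation p under 0.05. All 15 lymphoid markers had a positive log2 fold change (median 1.01), with 0 at an unadjusted edgeR p under 0.05, and the lymphoid score was 2.67 higher in AAV-Notum mice (exact permutation p = 0.0844), or 0.61 higher without AAV-GFP-2011 and AAV-GFP-2014. Of the 10 endothelial markers, 9 had a negative log2 fold change (median -0.33) and 4 were lower at an unadjusted p under 0.05, as were 9.54% of all genes (4.64% were higher). Their summed level ran from 734 to 1170 CPM in AAV-GFP and from 691.4 to 940.2 CPM in AAV-Notum mice, and none was at 0 (score difference -0.28, exact permutation p = 0.0952). With the endothelial score as a covariate, the log2 fold change of Klf4, a gene of endothelium, was -0.37 (standard error 0.11, edgeR adjusted p = 0.213, unadjusted 0.00507), and that of Egr1 was 0.55 (edgeR adjusted p = 0.351, unadjusted 0.0372). The part of endothelial and lymphoid RNA in the Klf4 difference was not tested. Of the other lists, macrophage (2 of 10), mural (2 of 8), progenitor (2 of 8) and hepatocyte markers (2 of 8) had genes lower at an unadjusted p under 0.05 and mast cell markers had 1 of 5 higher. Adipocyte and skeletal muscle markers had none. The fitted differences were farthest from 0 for these last lists of other tissues: all 8 hepatocyte markers were negative (median log2 fold change -2.80) and all 8 muscle markers positive (median 1.38). Both rested on a few mice. The summed hepatocyte level ran from 45.5 to 5579 CPM in AAV-GFP (highest in AAV-GFP-2013) and from 20.2 to 803.1 CPM in AAV-Notum mice (score difference -2.41, exact permutation p = 0.186). The summed muscle level ran from 9.05 to 821.2 CPM in AAV-GFP and from 9.22 to 3809 CPM in AAV-Notum mice (highest in AAV-Notum-2042), and the score difference, -0.46 (exact permutation p = 0.796), had the opposite sign to the fitted median.

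RefSeq promoters of GRCm38.p6, 250 bases before to 50 after a start site, were at hand for 7 of the 10 genes, in 11 entries, and not for Egr1, Egr3 and Ier2, which were not searched. TGACG, the core of the cAMP response element (CRE) that CREB binds, was searched on both strands with the motifs below. It was present in at least 1 entry of all 7 genes, beside 23% of 27025 genes. By entry, it was in 81.8% of these 11, the others being entries of Egr2, beside 20.8% of 32851 promoters. Some entries of Egr2 overlap, so the same CRE cores of Egr2 are counted more than once in the share by entry. Among promoters with at least the lowest GC content of these entries, 56%, the share was 30.4%. Their median GC content was 64%, against 69.3% in the entries, so GC content was not matched. Stretches upstream of the start are shown for Klf4, the gene with separated groups, its relative Klf2, and Btg2 and Nr4a3, which were low in both lymphoid-poor mice. They read 5′ to 3′ on the strand of the gene, with TGACG or its complement CGTCA in capitals, from chr4:55532476-55532725, chr8:72318812-72319032, chr1:134079156-134079405 and chr4:48045055-48045152. Those of Klf2 and Nr4a3 end before the RefSeq start, where the GENCODE gene begins.
Klf4: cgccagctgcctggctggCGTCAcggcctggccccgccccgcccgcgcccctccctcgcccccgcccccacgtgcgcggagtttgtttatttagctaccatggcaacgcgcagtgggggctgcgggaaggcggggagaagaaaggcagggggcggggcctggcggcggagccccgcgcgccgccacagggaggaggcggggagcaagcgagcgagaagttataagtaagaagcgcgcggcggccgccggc
Klf2: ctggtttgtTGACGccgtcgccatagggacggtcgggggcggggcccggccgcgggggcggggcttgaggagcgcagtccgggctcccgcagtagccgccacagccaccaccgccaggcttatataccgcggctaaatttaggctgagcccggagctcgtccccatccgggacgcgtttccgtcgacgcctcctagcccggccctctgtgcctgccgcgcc
Btg2: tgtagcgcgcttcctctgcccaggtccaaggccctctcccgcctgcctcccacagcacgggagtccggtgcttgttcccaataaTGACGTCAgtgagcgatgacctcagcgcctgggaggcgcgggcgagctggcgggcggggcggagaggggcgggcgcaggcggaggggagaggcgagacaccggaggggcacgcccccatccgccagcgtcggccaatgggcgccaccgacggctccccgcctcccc
Nr4a3: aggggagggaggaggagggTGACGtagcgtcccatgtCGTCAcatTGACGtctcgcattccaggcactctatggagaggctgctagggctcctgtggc

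Klf4 held 1 CRE core, at -232 to -228 from the RefSeq start, and Klf2 held 1, at -241 to -237. Btg2 held 2, which together form the whole palindromic CRE TGACGTCA at -166 to -159. Btg2 was the only gene of the 7 with the whole element (2.03% of all genes, 1.79% of all promoters). Nr4a1, Nr4a2 and Nr4a3 each held 4 CRE cores in their windows, 3 of those of Nr4a3 in the stretch shown. The E-box CACGTG was found in Klf4 and Egr2 (8.09% of genes), and the CArG box, the site of SRF, in Egr2 alone (1.81% of genes). No entry held the EGR motif GCGTGGGCG (0.612% of promoters), the NR4A motif AAAGGTCA (1.51%), the TCF/LEF motif of Wnt signalling (16.9%) or the glucocorticoid response element (0.00913%), in these windows. Of the 7 genes with higher fitted levels, 4 were searched (Klf2, Btg2, Nr4a1 and Nr4a3), and these held the CRE core as Klf4 did.

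**Figure D4:**
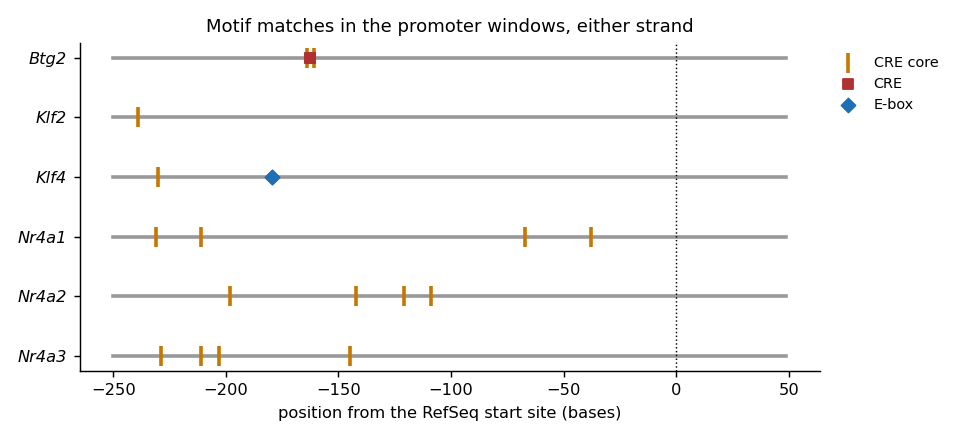
Matches of the CRE core (orange bars), the whole CRE (red square) and the E-box (blue diamond) on either strand, by position from the RefSeq start site in bases (horizontal axis), for the 6 tested genes with a promoter entry. Each grey line is a window of 300 bases and the dotted line is the start; every gene has at least 1 CRE core and Btg2 alone the whole CRE.

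The other genes of the response were read from 8 lists, 102 of whose 111 genes were tested. At an unadjusted edgeR p under 0.05, 23 of the 102 were lower in AAV-Notum mice (9.54% of all genes) and 2, Klf16 and Pim1, were higher (4.64%), and 1 was lower at an adjusted p under 0.05. DESeq2 called 11 of the 102 lower at an adjusted p under 0.05 (2.18% of all genes with an adjusted p) and 0 higher, and limma-voom called 1, Fosl2, lower and 0 higher. Their median log2 fold change was -0.07. Relatives of the 10 genes in the Egr, Klf, Ier and Btg/Tob families gave 5 lower and 1 higher of 20 tested (median -0.18). Klf9, a glucocorticoid-induced factor, was at 127.5 ± 35.4 CPM against 193 ± 47.3 CPM in AAV-GFP mice (SD, n = 6), a log2 fold change of -0.60 (edgeR adjusted p = 0.236). That of Klf6 was -0.34, that of Klf11 -0.44, that of Klf14 -1.30 and that of Tob2 -0.40, while that of Klf16 was 0.34, with edgeR adjusted p-values from 0.214 upwards. Klf14 had a low level, 1.08 ± 0.56 CPM against 2.64 ± 1.69 CPM in AAV-GFP mice (SD, n = 6, exact permutation p = 0.0952). Thus Klf4 was not alone among the KLF genes with a negative difference at this threshold, but of these 5 relatives none had separated groups. The count of 5 was 1 with the lymphoid or the endothelial score as a covariate, 3 with the RNA integrity number and 2 in the 10 mice. The count over all genes fell as well. It was 1487 of 15585 in the main fit, 765, 832 and 928 with these covariates in turn, and 792 of 15994 in the 10 mice. With single mice left out the count of 5 was 2 without AAV-GFP-2014, where 1070 of 15763 genes were lower. It was 3 without AAV-GFP-2011, AAV-GFP-2012, AAV-Notum-2031, AAV-Notum-2032 or AAV-Notum-2041, where 1053 to 1351 genes were lower. With the lymphoid and the endothelial score, Klf9 was at -0.37 and -0.29, Klf11 at -0.14 and -0.16, and Klf14 at -0.47 and -0.39. The higher count of 1 was 0 with the lymphoid score or in the 10 mice, and 2 without AAV-GFP-2022. Over all genes, 631 of 15585, 345 of 15994 and 1625 of 15707 were higher in these fits, beside 723 of 15585 in the main fit.

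The AP-1 and Atf factors, classical companions of Egr1, gave 2 lower and 0 higher of 7 tested at an unadjusted p under 0.05 (9.54% and 4.64% of all genes). Fosl2, a relative of FOS, had 41.2 to 60.0 CPM in AAV-GFP and 27.2 to 34.5 CPM in AAV-Notum mice. The groups did not overlap, and the log2 fold change was -0.74 (standard error 0.11, edgeR adjusted p = 0.0341). Jun had a log2 fold change of -0.88 (edgeR adjusted p = 0.121, DESeq2 adjusted p = 0.00473), also with separated groups (0.693% of all genes in this direction). It was -0.47 with the lymphoid score as a covariate, -0.58 with the endothelial score and -0.57 in the 10 mice. The adjusted p of Fosl2 was 0.214 without the 2 lymphoid-poor mice (log2 fold change -0.65). It was 0.0844 with the lymphoid score (-0.59), 0.0614 with the endothelial score (-0.60) and 0.076 with the integrity number (-0.68). The filter of 1 count over all mice gave an edgeR adjusted p of 0.0572, and the authors' normalized values a limma adjusted p of 0.0561. With a single mouse left out the edgeR adjusted p of Fosl2 was above 0.05 in 10 of 12 fits, all but those without AAV-GFP-2013 or AAV-GFP-2022. Of the 33 other immediate early genes tested, 8 were lower and 1, Pim1, higher. The lower count was 5 with the endothelial score, and the higher count was 2 with that score, the lymphoid score or the integrity number, or without AAV-GFP-2011. Over all genes, 832 of 15585 were lower with the endothelial score. Higher were 1191, 631 and 464 of 15585 with these covariates in turn, and 455 of 15803 without AAV-GFP-2011. The 5 with the smallest p were Cebpd (-0.98), Errfi1 (-1.17), Per1 (-0.73), Thbs1 (-1.50) and Sgk1 (-0.43 log2 fold change), with edgeR adjusted p-values from 0.124 upwards. Of the 33, DESeq2 called 4 lower (2.18% of all genes with an adjusted p) and 0 higher. The 4 were Cebpd (DESeq2 adjusted p = 0.00662), Errfi1 (0.00488), Per1 (0.0217) and Thbs1 (0.0235). The value of Thbs1 was -0.93 without AAV-GFP-2012 and -0.67 with the endothelial score as a covariate (edgeR adjusted p = 0.608).

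Genes upstream of the response, 13 factors and coactivators from SRF to MEF2, gave 0 lower and 0 higher at an unadjusted p under 0.05 (median log2 fold change 0.11). Without AAV-GFP-2022 the higher count was 2, without AAV-GFP-2013 or AAV-Notum-2042 it was 1, and with the endothelial score 1 gene was lower. Over all genes, 1625 of 15707, 967 of 15716 and 1072 of 15829 were higher without these mice in turn. With the endothelial score 832 of 15585 were lower. Of the 17 genes that end the response, 6 were lower and 0 higher (9.54% and 4.64% of all genes, median -0.15), and limma-voom had 1 higher (1462 of 15585 genes). Spry4, an inhibitor of the growth factor to ERK pathway, had 20.1 to 41.8 CPM in AAV-GFP and 8.38 to 15.8 CPM in AAV-Notum mice, with separated groups (log2 fold change -1.36, edgeR adjusted p = 0.0518). Its relatives Spry1 (-0.71, edgeR adjusted p = 0.112) and Spred2 (-0.36, edgeR adjusted p = 0.117) had separated groups as well. Over all genes, 0.693% were separated in this direction. Dusp8 (-1.40, edgeR adjusted p = 0.105) and Dusp1 (-0.53, edgeR adjusted p = 0.295), both MAPK phosphatases, completed the 5 with the smallest p. DESeq2 called 4 of the 17 lower (2.18% of all genes with an adjusted p) and 0 higher, all 4 among these 5. The DESeq2 adjusted p-values were 3.73e-06 for Spry4, 7.99e-04 for Dusp8, 0.00307 for Spry1 and 0.0097 for Spred2. With the lymphoid and the endothelial score, Dusp8 was at -0.87 and -0.93, and Dusp1 at -0.32 and -0.23.

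Genes that the factors act on or with were counted at the same unadjusted threshold (9.54% of all genes lower, 4.64% higher). The 3 retinoid X receptors, partners of NR4A1 and NR4A2, gave 0 in either direction, 1 higher with the lymphoid or the endothelial score, and 1 each way without AAV-GFP-2022. Over all genes, 631 and 1191 of 15585 were higher with these scores. Without AAV-GFP-2022, 2138 of 15707 were lower and 1625 higher. Of 4 tested genes that KLF2 or KLF4 induces, 1 was lower: Thbd, the endothelial anticoagulant thrombomodulin, had 59.2 to 218.6 CPM in AAV-GFP and 51.0 to 70.3 CPM in AAV-Notum mice (log2 fold change -1.20, edgeR adjusted p = 0.115, DESeq2 adjusted p = 0.00205). Thbd was at -0.68 with the lymphoid score, -0.72 with the endothelial score and -0.84 in the 10 mice. Of 6 genes that EGR1 induces, 1 was lower, Pdgfb (-0.37, edgeR adjusted p = 0.235), and 0 were higher, beside the positive value of Egr1 itself. With the lymphoid or the endothelial score Pdgfb was at -0.28 or -0.19, and 0 of the 6 were lower (765 or 832 of 15585 genes).

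**Figure D5:**
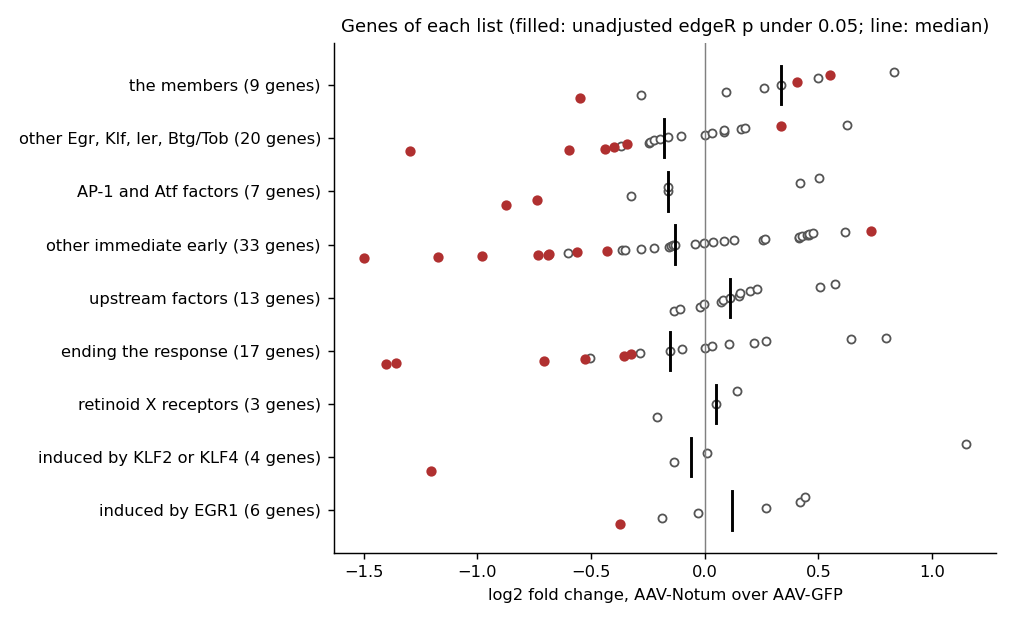
Log2 fold change of AAV-Notum over AAV-GFP (horizontal axis) of each tested gene, by list, with a vertical line for the median. Filled red points have an unadjusted edgeR p under 0.05; 3 of the 9 studied genes are filled, 1 on the left and 2 on the right, while all filled points among the 17 genes that end the response lie on the left.

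To see which other genes varied from mouse to mouse as these did, each gene's log2 CPM, with the group means subtracted, was correlated over the 12 mice with the mean z-score of the 9 genes. The closest was Ddx23, a helicase of the spliceosome (r = 0.96), followed by Ttbk1, Ccdc163, G3bp1, Ppp1r10, Myc, Uckl1 and Zkscan17 (r = 0.92 to 0.93). Ddx23 had 102.3 CPM in AAV-GFP and 105.4 CPM in AAV-Notum mice, a log2 fold change of 0.04. Of the 9 genes, which are part of that mean, Egr3 (r = 0.83), Btg2 (0.82), Ier2 (0.81), Klf2 (0.81), Nr4a3 (0.80) and Nr4a1 (0.79) followed it. Egr1 (0.29), Klf4 (below 0.01) and Nr4a2 (-0.61) did not. The 8 genes named first were picked as the highest of the ranking, which favours high r, and the share of all genes with such r was not computed. The ranking kept the 2 mice with few lymphoid transcripts, which were lowest for several of the 9 genes, and was not repeated without them. How far it rests on these 2 mice was not tested.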

How the data were processed

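The data are RNA-seq libraries of iWAT, 1 from each of 12 mice, 6 AAV-GFP and 6 AAV-Notum by the sample labels. The authors sequenced single-end TruSeq libraries on a HiSeq4000 and, per the labels, used FastQC, STAR 2.3.1 (mm10) and DESeq2. They deposited raw read counts per gene, used here, and log2 values (log2 of reads over a size factor, plus 1), used as an alternative. Undoing the latter gave whole reads for 100% of values (within 0.05 of a read). The 2 tables list 54134 and 31157 genes and hold different counts: over 15548 shared genes, 82.4% of values differed, although totals per mouse were 99.8% to 102% of those in the raw table. The alternatives that use it thus differ in the counts as well as in the scaling. The counting program, annotation and strand setting are not given in the sources used here.

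Low counts were removed by filterByExpr (at least 10 in enough mice, 15 in all), TMM-normalized and tested with edgeR 4.0.16 (R 4.3.3), two-sided, quasi-likelihood, Benjamini-Hochberg adjusted over 15585 genes. CPM use TMM library sizes, log2 CPM a prior count of 2, and RPKM and positions GENCODE vM21 (GRCm38). Single values were tested by exact permutation of the 12 mice, and correlations by 100000 permutations (exact within 6 mice). The 10 genes, 8 gene lists and 9 marker lists were chosen with earlier results of these data known. Named are all 10 genes, up to 5 genes per list with the smallest unadjusted p under 0.05, and the 8 genes of highest likeness. Pim1 and Tob2 were named after their values were seen. Promoters are RefSeq's. Alternatives were DESeq2 1.42.0, limma-voom (limma 3.58.1), RLE factors, other count filters, a robust fit, covariates, left-out mice and the other table. The edgeR, DESeq2 and limma fits were tested on simulated data. Total counts were 14711113 to 21618860 per mouse, so genes with few reads, such as Nr4a3 (22 to 290) and Egr3 (24 to 668), carry more counting error.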

Additional observations from a re-analysis of the deposited data

Results flagged for a closer look

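In 38 groups of 6 mice, 1 for each gene or marker score in each treatment, the highest or lowest mouse was compared with the others by Dixon's ratio. The ratio was above its 95% critical value in 3 groups, and chance flags about 1 in 20, or 1.9 of 38. Klf4 in mouse AAV-GFP-2012 was 75.33 CPM, far above the other 5 AAV-GFP mice at 47.3 to 54.4 CPM (ratio 0.748). The macrophage score of mouse AAV-GFP-2014 was 5.088, below the other AAV-GFP mice at 5.95 to 6.27 mean log2 CPM (ratio 0.729). The progenitor score of mouse AAV-Notum-2032 was 6.689, above the other AAV-Notum mice at 6.37 to 6.47 mean log2 CPM (ratio 0.686).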

How the results depend on the processing

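Under 25 alternatives for each of the 9 genes, 212 of 225 log2 fold changes kept their sign and their side of the adjusted 0.05 threshold. Signs changed for 4 genes. With the lymphoid score as a covariate, the log2 fold change was -0.040 for Egr3, -0.10 for Klf2, 0.046 for Nr4a2 and -0.50 for Nr4a3. With the endothelial score it was -0.14 for Klf2, 0.058 for Nr4a2 and -0.35 for Nr4a3. Nr4a3 was also -0.11 with the integrity number added to the fit, -0.31 in the 10 mice, and -0.13 to 0.49 with single mice left out (-0.13 without AAV-GFP-2011, -0.036 without AAV-GFP-2014). The cause was not tested. DESeq2, with or without independent filtering, called 1 gene lower at an adjusted p under 0.05 (Klf4) where edgeR called 0. Klf4 ran from -0.61 to -0.43 with single mice left out, with unadjusted edgeR p of 7.63e-04 to 0.00344, and Egr1 from 0.44 to 0.66. The others, in the same fits, ran from 0.60 to 1.19 (Egr3), 0.08 to 0.40 (Nr4a1), -0.39 to -0.16 (Nr4a2), 0.37 to 0.63 (Ier2), 0.19 to 0.49 (Klf2) and 0.32 to 0.49 (Btg2); the values of Klf2 without AAV-GFP-2011 or AAV-Notum-2032 (0.19 and 0.22), of Nr4a2 without AAV-GFP-2014 or AAV-Notum-2032 (-0.16 in both) and of Nr4a1 without AAV-GFP-2011, AAV-GFP-2021 or AAV-Notum-2034 (0.10, 0.16 and 0.08) or AAV-GFP-2022 (0.40) were over 1.5 times from those with all mice. The count of genes higher at an unadjusted p under 0.05 was 2, and 1 with RLE factors, the integrity number, the lymphoid or the endothelial score as a covariate, or in the 10 mice. It was 3, with Ier2 added, where the filter asked for 1 count over all mice. With limma-voom and on the authors' normalized values, Ier2 passed and Btg2 did not (unadjusted limma p of Btg2 0.0596 and 0.0538). The count ran from 0 (without AAV-Notum-2033) to 3 (without AAV-GFP-2013 or AAV-GFP-2022) with single mice left out. It was 1 without AAV-GFP-2011, AAV-GFP-2012, AAV-GFP-2014, AAV-GFP-2021, AAV-Notum-2031, AAV-Notum-2032 or AAV-Notum-2034. Over all genes, 723 of 15585 were higher with all mice, 634 of 15804 without AAV-Notum-2033 and 1625 of 15707 without AAV-GFP-2022. Of the 102 other listed genes, 2 were higher at that threshold, 4 with the endothelial score, 1 in the 10 mice and 2 to 6 with single mice left out (6 without AAV-GFP-2022). The 23 lower ones were 16 (with the endothelial score) to 26 (without AAV-GFP-2022) throughout. The counts over all genes moved too. With the endothelial score 1191 of 15585 were higher and 832 lower, and in the 10 mice 345 of 15994 were higher. Without AAV-GFP-2022, 1625 of 15707 were higher and 2138 lower. The table of recovered reads, chosen after seeing the data, gave 1 lower and 2 higher genes. No paired analysis was possible because the groups share no mouse numbers. Egr2, at 0 to 5 reads, is below what this depth can compare.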
